A study of Homo sapiens with 3 samples.

Results

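The genes described here carry MHC class I antigen presentation: the heavy chains HLA-B, HLA-C, HLA-E and HLA-F, the light chain B2M, the peptide transporter subunits TAP1 and TAP2, and the immunoproteasome subunits PSMB8 and PSMB9. They were represented by every probe set whose only gene symbol was one of these 9 names, which gave 23 of the 54675 probe sets on the array and 9 of 19775 genes. A probe set is a group of short oligonucleotides that together report 1 transcript or transcript group. All RNA came from cultures of H9, an established human embryonic stem cell line of a single genotype, and there was 1 array for each of 3 groups. The first group was neuroepithelial cells at day 17, which received no morphogen. The second was astrocytes at day 210 that had been specified with retinoic acid (RA), and the third was astrocytes at day 210 that had been specified with fibroblast growth factor 8 (FGF8). Both morphogens were applied from day 10 to day 21. Differentiation began when stem cells were lifted from mouse embryonic fibroblast feeders and formed into embryoid bodies, a step that all 3 groups shared. With 1 array per group there was no replicate and no test, and the small number of arrays sets the precision of every value. Stage, time in culture and morphogen treatment differ together between the neuroepithelial and the astrocyte arrays and cannot be told apart. In such bulk RNA a change in the share of one kind of cell and a change in RNA per cell cannot be told apart either.

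MHC class I molecules display short peptides from proteins made inside the cell, so that cytotoxic T cells and natural killer cells can survey it. The proteasome cuts the peptides, the TAP transporter moves them into the endoplasmic reticulum, and a loading complex places them on a heavy chain paired with beta-2-microglobulin. Interferons induce most of these genes, including the catalytic subunits that turn the standard proteasome into the immunoproteasome. Neural progenitors and neurons are known for low class I expression, and astrocytes for raising it under interferon.

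The labelled cell types were checked against marker lists. GFAP, the astrocyte intermediate filament, had a normalized signal of 5.71 on the neuroepithelial array, 14189 on the RA array and 3053 on the FGF8 array. The water channel AQP4 had 5.34, 4115 and 4055, and 6 of 9 astrocyte markers were at least 2-fold higher on each astrocyte array. Over all genes compared, 18.2% were higher and 14.6% lower on the RA array, and 12.9% and 10.3% on the FGF8 array. LIN28A, an RNA-binding protein of early progenitors, had 3572, 5.50 and 18.8. SOX1, an early neural transcription factor, had 1861, 586 and 1519.5, and was thus within 2-fold of the neuroepithelial array on the FGF8 array. Of 8 neuroepithelial markers 5 were at least 2-fold lower and 1, NES, higher on the RA array, and 4 were lower and 0 higher on the FGF8 array, while SOX2 and CDH2 were within 2-fold on both. All 8 fibroblast and pericyte markers were above the floor on the neuroepithelial array and 3 on each astrocyte array, with summed signals of 10234, 915 and 6454. On each astrocyte array 7 of the 8 were at least 2-fold lower, and PDGFRA, also a marker of glial progenitors, made up 6001 of the FGF8 sum. Of 7 neuron markers 1 was higher and 4 lower on the RA array, and 2 higher and 2 lower on the FGF8 array, with summed signals of 8114, 6242 and 13109. DCX, a microtubule-binding protein of young neurons, had 2057, 582 and 6713, and the part of neuron markers in the differences between the astrocyte arrays was not tested. Of 12 microglia markers 0, 1 and 1 were above the floor, and of 7 lymphocyte markers 0, 3 and 1. The microglia markers above it were CSF1R on the RA array and ITGAM on the FGF8 array, by bounds of 0.24 and 0.27 log2 units. The lymphocyte markers above it were CD3D, CD3E and CD79A on the RA array and CD79A on the FGF8 array. The summed microglia signals were 73.1, 125 and 94.0 and the summed lymphocyte signals 75.9, 142 and 87.1, where genes that are silent on all arrays also add signal. The microglia markers PTPRC, AIF1, TYROBP, SPI1, C1QA and CD14, read after their values were seen, were below the floor on all 3 arrays. The ratio of 3' to 5' signal for ACTB was 1.33 on the neuroepithelial array, 6.67 on the RA array and 6.63 on the FGF8 array, and its part in the differences from the neuroepithelial array was not tested. Spiked-in hybridisation controls were 2.40-fold brighter on the RA array than on the FGF8 array and 2.62-fold brighter than on the neuroepithelial array, and their part was not tested either.

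The promoters of 6 of these genes are printed because they hold, in different arrangements, the elements that class I promoters are known for. Promoter windows from RefSeq (GRCh38.p14) were found for 8 of the 9 genes, in 10 windows, and the 200 bases before each start site were searched on both strands. Capitals mark matches to GAAANNGAA and GAANNGAAA, forms of the element bound by interferon regulatory factors, to the NF-kappaB element GGNNTTTCC or GGGNTTCCC, and to TGACGC, the core of site alpha in the SXY module of HLA promoters. Each sequence reads on the strand of its gene and ends at the base before the start site. HLA-B lies at chr6:31357180-31357379 on the minus strand, HLA-C at chr6:31272093-31272292 on the minus strand, and HLA-F at chr6:29723234-29723433 on the plus strand. B2M lies at chr15:44711317-44711516 on the plus strand, TAP1 at chr6:32853705-32853904 on the minus strand and TAP2 at chr6:32838740-32838939 on the minus strand.
HLA-B: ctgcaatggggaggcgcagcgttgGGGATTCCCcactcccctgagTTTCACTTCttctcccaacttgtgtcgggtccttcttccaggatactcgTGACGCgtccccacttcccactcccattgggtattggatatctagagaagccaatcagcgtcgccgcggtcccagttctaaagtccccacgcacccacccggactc
HLA-C: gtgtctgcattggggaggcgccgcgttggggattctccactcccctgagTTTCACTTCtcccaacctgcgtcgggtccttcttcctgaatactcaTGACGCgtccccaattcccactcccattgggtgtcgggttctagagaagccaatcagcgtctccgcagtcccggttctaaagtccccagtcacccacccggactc
HLA-F: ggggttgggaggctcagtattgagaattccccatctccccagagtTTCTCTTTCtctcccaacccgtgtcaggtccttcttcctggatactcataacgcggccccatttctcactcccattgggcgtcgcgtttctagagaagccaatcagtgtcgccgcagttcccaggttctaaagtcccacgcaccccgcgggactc
B2M: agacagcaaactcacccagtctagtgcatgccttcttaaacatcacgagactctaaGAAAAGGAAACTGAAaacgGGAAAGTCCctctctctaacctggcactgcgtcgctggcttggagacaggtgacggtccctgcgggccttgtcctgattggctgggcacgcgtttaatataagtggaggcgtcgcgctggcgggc
TAP1: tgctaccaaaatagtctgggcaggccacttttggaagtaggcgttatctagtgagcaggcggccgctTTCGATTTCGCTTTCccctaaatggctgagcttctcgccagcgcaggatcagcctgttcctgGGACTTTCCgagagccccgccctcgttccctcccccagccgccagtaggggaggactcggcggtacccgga
TAP2: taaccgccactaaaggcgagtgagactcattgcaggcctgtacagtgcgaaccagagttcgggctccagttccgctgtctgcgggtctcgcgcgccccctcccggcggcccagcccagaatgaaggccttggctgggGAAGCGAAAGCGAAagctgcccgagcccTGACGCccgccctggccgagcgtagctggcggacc

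The element GAAANNGAA matched in 4 of the 8 genes, HLA-F, B2M, TAP1 and TAP2, and in 5.44% of 35116 promoter windows of the same length. The first copy in B2M runs into a second, and an NF-kappaB match begins a few bases further on. TAP1 also holds overlapping copies, with an NF-kappaB match nearer the start site. GAANNGAAA matched in HLA-B, HLA-C and TAP2, against 5.11% of all windows, and in TAP2 it overlaps the other form. NF-kappaB matches lay in HLA-B, B2M and TAP1, against 5.86% of all windows. TGACGC matched in HLA-B, HLA-C and TAP2, against 6.67%. CCAAT, left in lower case above, matched in HLA-B, HLA-C, HLA-F and B2M, against 28.0% of all windows. The HLA-B and HLA-C windows were 87.7% identical over their alignment, HLA-B and HLA-F 80.8%, and HLA-C and HLA-F 80.2%. No match to any of the capital motifs lay in the windows of PSMB8 or PSMB9 or in the second window of TAP1. TAP1 and PSMB9 are transcribed away from each other from start sites 488 bases apart. The TAP1 matches thus lie in the stretch between both start sites, beyond the 200 bases searched for PSMB9. A match describes letters and is no measured binding site.

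All but 1 of the 9 genes were brighter on both astrocyte arrays than on the neuroepithelial array when each gene was read by its standard probe set. That probe set is the brightest of the gene by its mean, leaving out the type that can bind related transcripts (ending in _x_at) where the gene has another. On the RA array 8 of the 8 genes compared were at least 2-fold higher and 0 lower, with a median log2 difference of 3.22, beside 18.2% of 13340 genes higher, 14.6% lower and a median of 0.07. On the FGF8 array 8 of 9 were higher and 0 lower, with a median of 2.07, beside 12.9% of 13005 genes higher, 10.3% lower and a median of 0.05. By probe set, 18 of 21 compared were higher and 0 lower on the RA array, against 16.1% and 16% of all probe sets. On the FGF8 array 17 of 21 were higher and 0 lower, against 11.4% and 11.6%. Of all genes past 2-fold, 55.4% were higher on the RA array and 55.6% on the FGF8 array. With the array medians set equal instead, these shares were 70.8% and 75.8%, and the medians over all genes 0.35 and 0.42. The exception was HLA-F, whose standard probe set was at or next to the floor on all 3 arrays while its other probe sets were higher. The floor was a normalized signal of 26.1, the median of 54613 probe sets over the 3 arrays, below which values carry no order and a difference is given as a lower bound. The astrocyte comparisons share the neuroepithelial array, so they are set side by side and are not independent of each other.

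**Figure D1:**
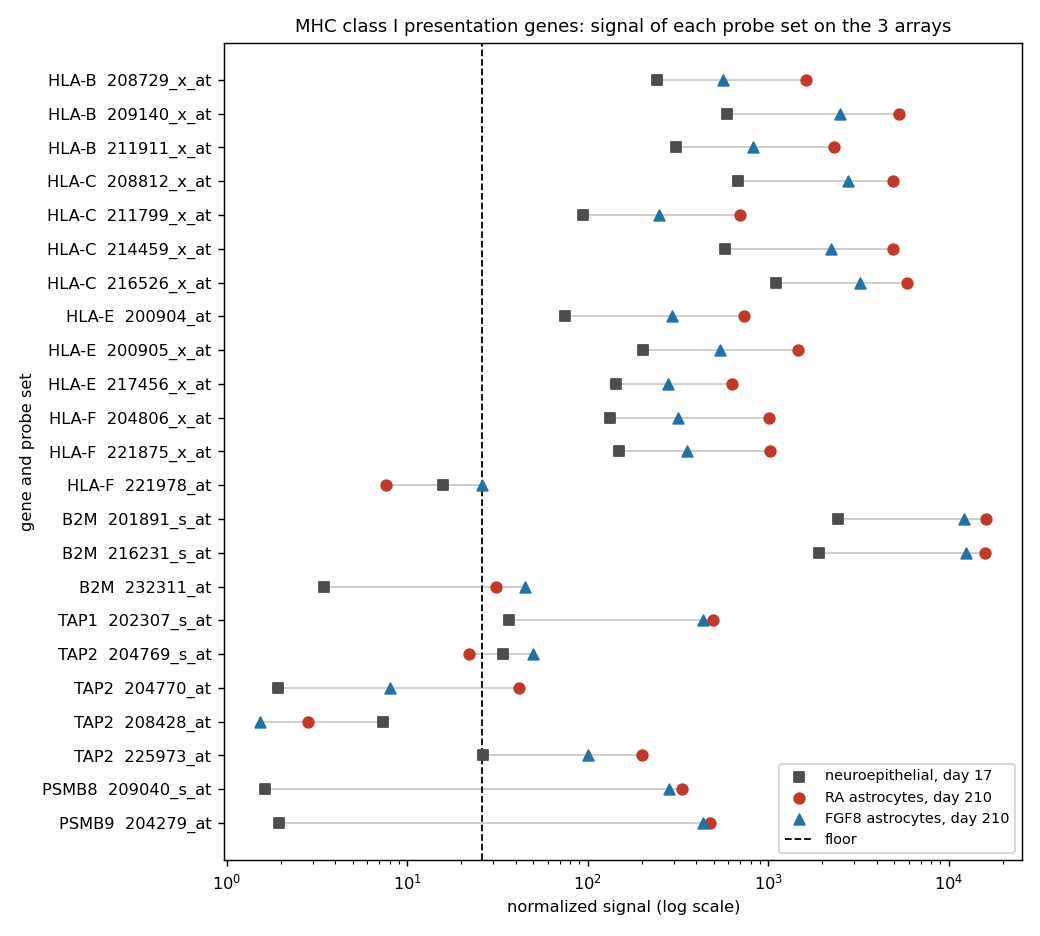
Normalized signal (log axis) of each of the 23 probe sets of the 9 genes on the neuroepithelial array (squares), the RA astrocyte array (circles) and the FGF8 astrocyte array (triangles), with grey lines joining the lowest and highest of the 3 and a dashed line at the floor of 26.1. The HLA-B, HLA-C and HLA-E probe sets run in the order neuroepithelial, FGF8, RA, while for TAP1, PSMB8 and PSMB9 the astrocyte arrays lie close together.

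The immunoproteasome subunits, which replace standard catalytic subunits and favour peptides that fit class I grooves, stood at the floor on the neuroepithelial array. PSMB9, also known as LMP2, had signals of 1.94 on the neuroepithelial array, 474 on the RA array and 435 on the FGF8 array. It was at least 18.2-fold higher on the RA array and at least 16.7-fold higher on the FGF8 array. PSMB8, also known as LMP7, had 1.63, 333 and 283. Its lower bounds were 12.8-fold and 10.8-fold. Both genes were thus dim on 1 array and well above the floor on the astrocyte arrays, which differed from each other by 0.12 log2 units for PSMB9 and 0.24 for PSMB8. Each gene rests on a single probe set, and a bound depends on the floor chosen.

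The peptide transporter subunits form a heterodimer in the endoplasmic reticulum membrane. TAP1 had signals of 36.9, 494 and 438 on the neuroepithelial, RA and FGF8 arrays, 13.4-fold and 11.9-fold higher than in neuroepithelial cells. The neuroepithelial value lay near the floor, and with the floor at the 70th percentile the differences were bounds of 2.37 and 2.20 log2 units. Both astrocyte arrays were again close, 0.17 log2 units apart. TAP2 was read by 4 probe sets that disagreed. Its standard probe set had 26.5, 199 and 101, with log2 differences of 2.91 on the RA array and 1.93 on the FGF8 array, and the neuroepithelial value lay just above the floor. Another probe set had 34.1, 22.1 and 49.5, and went below the floor only on the RA array. The next was above the floor only on the RA array, with 41.7, and the last was below it on all 3 arrays. TAP2 was thus higher on both astrocyte arrays by its brightest probe set only.

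HLA-B, a classical heavy chain that presents peptides to CD8 T cells, had signals of 596 on the neuroepithelial array, 5284 on the RA array and 2498 on the FGF8 array by its brightest probe set. That is 8.87-fold and 4.19-fold above neuroepithelial cells. Its other probe sets had 242, 1616 and 563, and 309.9, 2316 and 829. All 3 gave the same order of arrays, and the RA difference lay between 2.74 and 3.15 log2 units.

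HLA-C, the classical heavy chain that is also a ligand of killer cell receptors, had 1109, 5914 and 3247 by its brightest probe set. Over its 4 probe sets the difference from neuroepithelial cells ran from 2.41 to 3.08 log2 units on the RA array and from 1.40 to 2.03 on the FGF8 array. The dimmest of the 4 had 94.6, 701 and 249.7, so the same order held at low and high signal. HLA-B and HLA-C had 0 probe sets outside the _x_at type, and each such set may also bind transcripts of other heavy chains.

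HLA-E is a heavy chain of little variation between people that presents leader peptides of other class I chains to natural killer cells. It was the only heavy chain with a probe set outside the _x_at type that was above the floor on all 3 arrays, at 74.9, 738 and 294. That is 9.85-fold above neuroepithelial cells on the RA array and 3.93-fold on the FGF8 array. Its _x_at probe sets gave the same order, with 203.6, 1469.9 and 544, and 143, 633 and 278. For the dimmer of these the FGF8 difference was 0.96 log2 units, just under 2-fold.

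HLA-F is a mostly intracellular heavy chain that can reach the surface of activated cells without peptide. Its _x_at probe sets had 133, 1009 and 316, and 149.6, 1019 and 354, which were 7.59-fold and 6.81-fold higher on the RA array. On the FGF8 array the differences were 1.25 and 1.24 log2 units. Its remaining probe set had 15.9, 7.63 and 26.1, so it did not follow the _x_at sets. Whether these reported HLA-F or a related chain was not tested.

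B2M, the light chain needed for folding and surface display of every heavy chain, was bright on all arrays. Its standard probe set had 2452 on the neuroepithelial array, 16151 on the RA array and 12182 on the FGF8 array, log2 differences of 2.72 and 2.31. A second had 1925, 15962 and 12455. Its remaining, dim probe set had 3.44, 31.3 and 45.3. The bright sets ran in the same order of arrays as the heavy chains, while the dim set was highest on the FGF8 array.

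Set directly against each other, the astrocyte arrays differed most in the heavy chains by the median of the probe sets. The RA array was at least 2-fold above the FGF8 array for HLA-B and HLA-E, 2 of 9 genes, with 0 lower, beside 9.72% of 12961 genes higher and 7.92% lower. By probe set 10 of 22 were higher and 0 lower, against 9.05% and 7.98% of all, and all 10 were heavy chain probe sets, out of 13. Of the 10, all but the standard probe set of HLA-E were of the _x_at type, which can bind related transcripts. The heavy chain probe sets had a median difference of 1.33 log2 units, and their highest was 1.67 for an _x_at probe set of HLA-F. The standard probe set of HLA-F, outside that type, differed by -0.0008 as a bound. TAP1, PSMB8 and PSMB9 differed by 0.17, 0.24 and 0.12. TAP2, at 0.99, and HLA-C, at 0.86 by its brightest probe set, lay just inside 2-fold. On the values as deposited HLA-C differed by 1.10 and so passed 2-fold.

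B2M depended most on the normalization. Its deposited intensities were 22176 on the RA array and 11089 on the FGF8 array, a log2 difference of 0.9999 that falls just short of 2-fold. Quantile normalization, which gives all arrays the same distribution, brought these to 16151 and 12182 and the difference to 0.41. The median over the 9 genes was 0.41 after normalization, beside 0.0088 over all genes. On the deposited values it was 0.99, beside 0.0013 over all genes, but HLA-F was at the floor on both arrays there and 8 genes were compared. For its bright probe sets the RA array was above the FGF8 array under both.

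**Figure D2:**
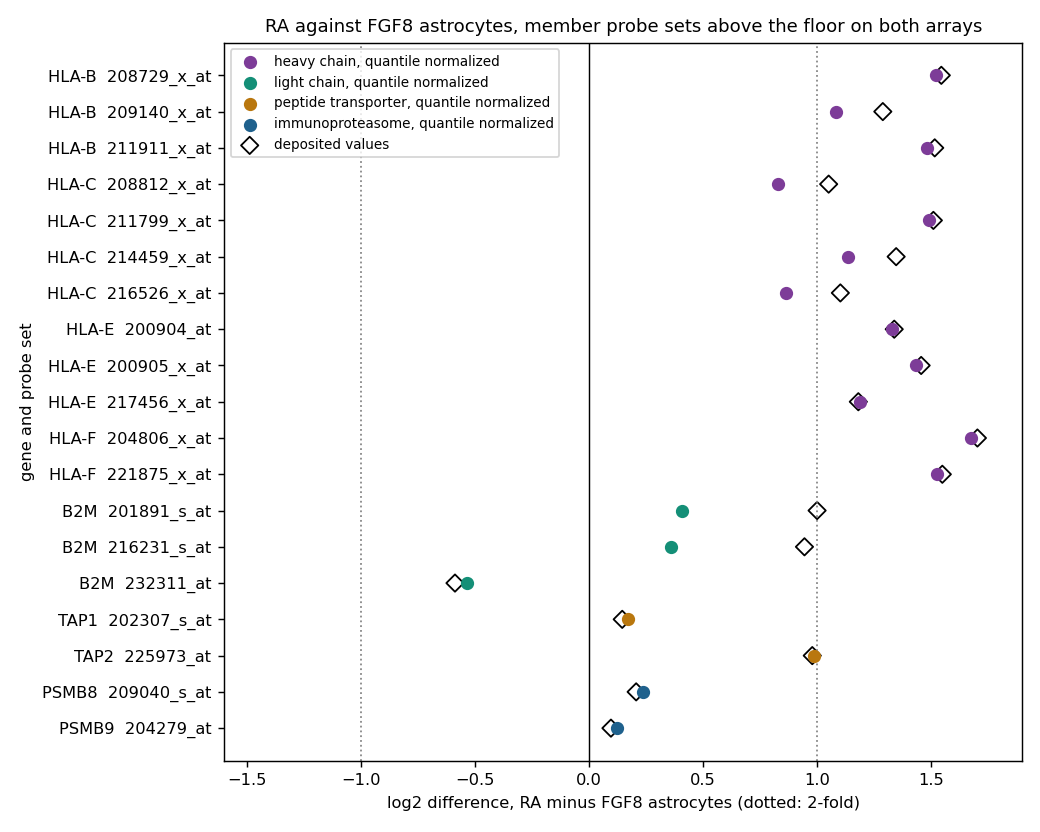
Log2 difference of RA minus FGF8 astrocytes for each probe set of the 9 genes that was above the floor on both arrays, coloured by role after quantile normalization and as open diamonds on the deposited values. Dotted lines mark 2-fold. The 12 heavy chain probe sets lie between 0.83 and 1.67, TAP1, PSMB8 and PSMB9 between 0.12 and 0.24, and B2M is where normalization moves the value most.

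Other heavy chain genes with a probe set of 1 symbol had the same order of arrays by their standard probe sets. HLA-G, a non-classical chain best known from placenta, had 324, 1402 and 643 on the neuroepithelial, RA and FGF8 arrays. HLA-J, a class I pseudogene, had 107, 694 and 232. Their log2 differences were 2.11 and 2.70 on the RA array and 0.99 and 1.12 on the FGF8 array. The 3 other HLA-G probe sets spread widely, from 0.71 to 3.12 on the RA array and from -0.70 to 1.72 on the FGF8 array, so they did not all keep this order. Probe sets of these genes may also bind transcripts of the chains above, and this was not tested.

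Genes that load or trim peptides mostly stayed within 2-fold. Of 13 compared on the RA array 1 was higher and 0 lower, beside 18.2% and 14.6% of all genes, with a median log2 difference of 0.36. On the FGF8 array 1 of 11 was higher and 1 lower, beside 12.9% and 10.3% of all genes. The median there was -0.08 and reached 0.46 under the alternatives tried. The one higher in both was TAPBP, or tapasin, which bridges TAP and the heavy chain inside the loading complex, with 151, 1017 and 399. A further TAPBP probe set had a log2 difference of -0.64 on both, as a bound. By their standard probe sets, CANX, calnexin, had 2862, 4841 and 4214, PDIA3 had 2720, 2360.4 and 2308, and HSPA5 had 4185, 5376 and 4127. The other CANX probe sets ran from 0.03 to 2.21 log2 units on the RA array and from -0.81 to 1.09 on the FGF8 array. CALR, calreticulin, had a log2 difference of 0.53 on the RA array and -1.51 on the FGF8 array by its standard probe set, while its other probe sets gave 1.45 and 1.505 on the RA array and 0.48 to 1.07 on the FGF8 array. The trimming peptidase ERAP1 had 182, 269 and 161.

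The rest of the proteasome did not show the differences of PSMB8 and PSMB9. PSMB10, the remaining immunoproteasome subunit, had 123, 187 and 150.2, log2 differences of 0.61 on the RA array and 0.29 on the FGF8 array. Among the partners of the immunoproteasome, PSMB10, PSME1, PSME3 and POMP, 0 of 4 passed 2-fold on either array by their standard probe sets. Another PSME3 probe set had a log2 difference of -1.04 on the RA array. The standard catalytic subunits that the inducible ones replace, PSMB5, PSMB6 and PSMB7, had log2 differences of -0.65, 0.47 and -0.78 on the RA array and -0.58, -0.07 and -0.33 on the FGF8 array. PSMB5 is the counterpart of PSMB8 and PSMB6 that of PSMB9. Of 10 other subunits of the 20S core 0 passed 2-fold in either comparison by their standard probe sets. Other probe sets reached 1.12 on the RA array and -1.02 on the FGF8 array for PSMB2, and 1.005 on the FGF8 array for PSMA5. The medians of the 10 were -0.54 and -0.36 and turned to 0.04 and 0.20 under other settings. The median of the 3 standard catalytic subunits ran from -0.65 to -0.12 on the RA array and from -0.33 to 0.22 on the FGF8 array over these settings. Of 14 subunits of the 19S cap 0 were higher and 1 lower on each array. Over all genes the shares higher and lower were 18.2% and 14.6% on the RA array and 12.9% and 10.3% on the FGF8 array.

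**Figure D3:**
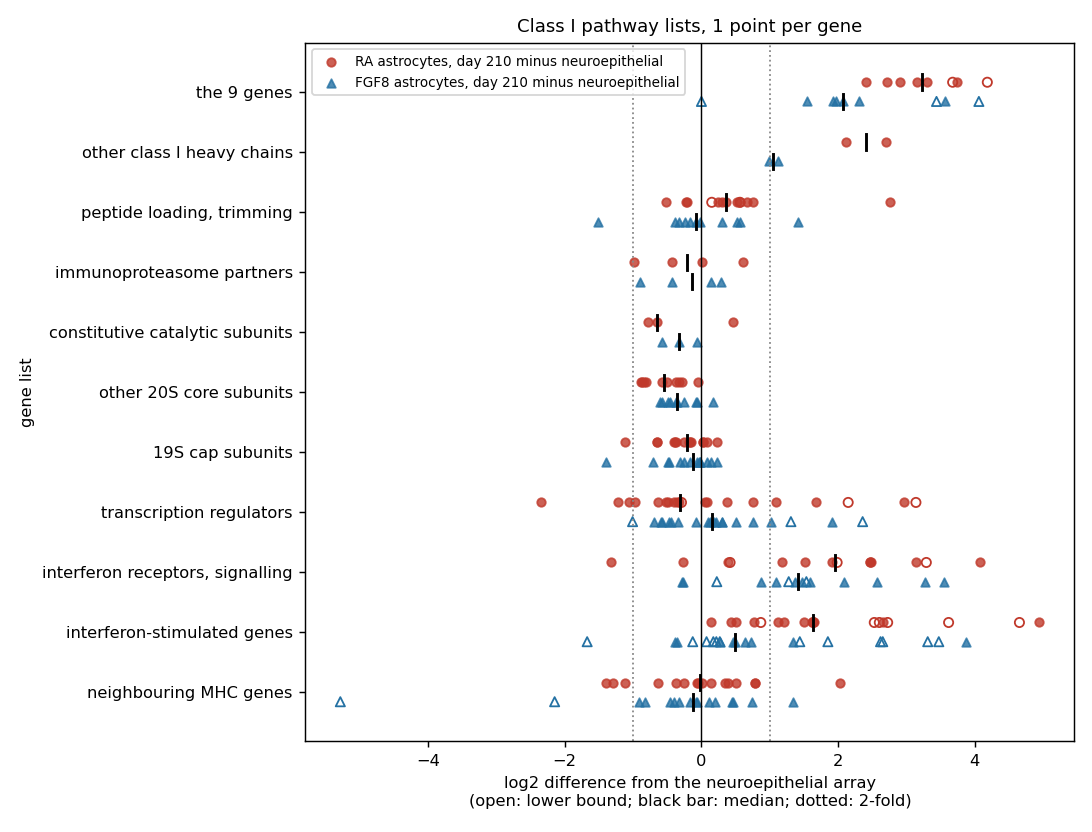
Log2 difference of RA astrocytes (circles) and FGF8 astrocytes (triangles) from the neuroepithelial array for the genes of each list, 1 point per gene. Open symbols are lower bounds, black bars medians and dotted lines 2-fold. The 9 genes have medians of 3.22 and 2.07, while the lists of proteasome genes other than PSMB8 and PSMB9 centre between -0.65 and -0.12, and all of these but 1 turn above 0 under another setting.

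All of the 9 genes but B2M lie in the MHC on chromosome 6, and the genes around them were read for comparison. RefSeq places 133 genes with a probe set of 1 symbol from HLA-F to TAPBP. Outside the class I, loading and class II genes, 12 of 65 compared, 18.5%, were at least 2-fold higher on the RA array and 8 lower. Their median log2 difference was 0.22. Over all genes 18.2% were higher and 14.6% lower there, with a median of 0.07, so these counts lay near the background. On the FGF8 array 5 of 66, 7.58%, were higher and 3 lower, beside 12.9% and 10.3% of all genes. A list of 16 neighbours had medians of -0.02 and -0.13, whose sign depended on the setting. By standard probe sets only GNL1, a GTP-binding protein, was at least 2-fold higher, by 2.03 and 1.34 log2 units. On the RA array 3 of the 16 were lower, IER3 at -1.40, MDC1 at -1.30 and TUBB at -1.12. On the FGF8 array 2 were lower, IER3 and FLOT1, with bounds of -5.28 and -2.15. Over all genes 14.6% and 10.3% were lower. Other probe sets ran from 0.22 to 1.37 for GNL1 and from 1.77 to 1.93 for FLOT1 on the RA array. On the FGF8 array those of FLOT1 ran from 0.69 to 0.85. TAP2, PSMB8, TAP1 and PSMB9 lie next to each other in this order, interrupted by PSMB8-AS1, the antisense RNA of PSMB8, which was singled out after its values were seen. Its lower bounds were 1.83 log2 units on the RA array and 1.94 on the FGF8 array, with the astrocyte arrays 0.11 apart. The class II genes beside them were 9 of 9 higher on the RA array and 5 of 9 on the FGF8 array, beside 18.2% and 12.9% of all genes. All 9 were at least 2-fold higher on the RA than on the FGF8 array, beside 9.72% of all genes, with a median of 2.97. PSMB8, TAP1 and PSMB9 differed there by at most 0.24, and TAP2 by 0.99 by its standard probe set.

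**Figure D4:**
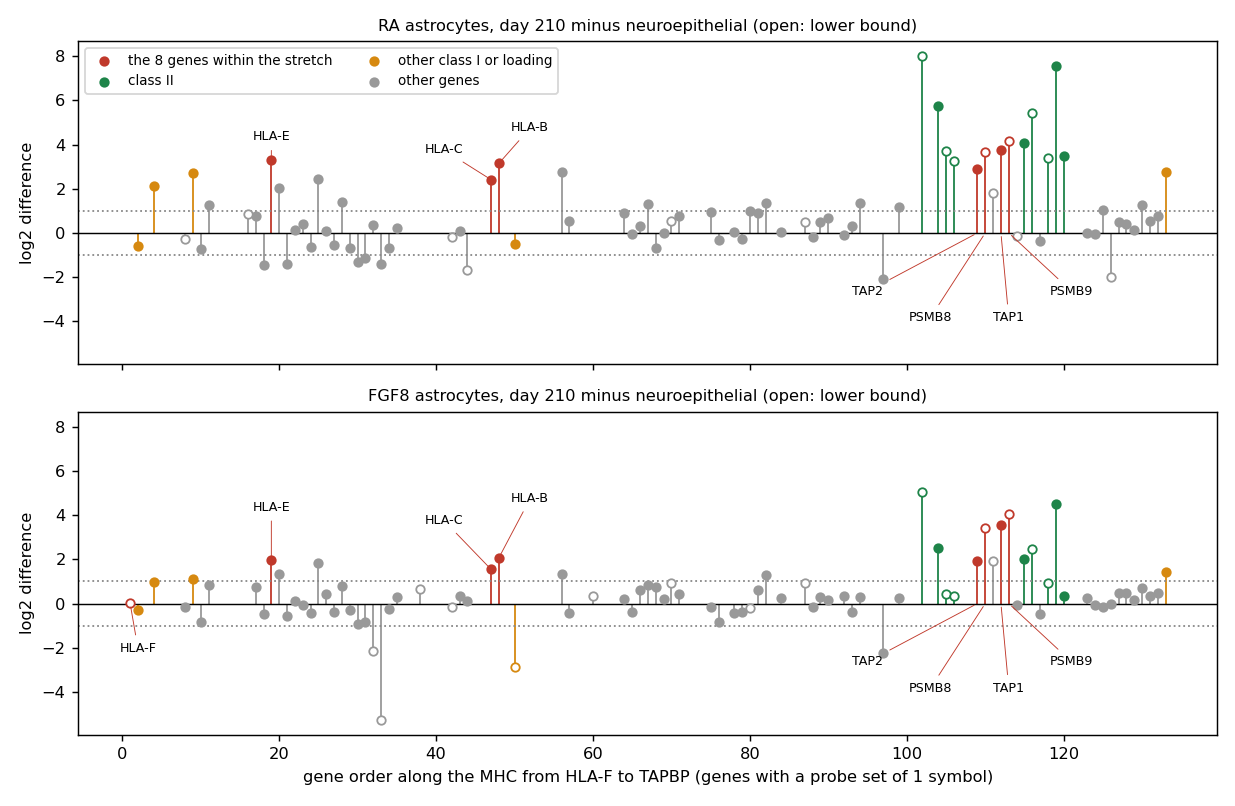
Log2 difference from the neuroepithelial array of genes in their order along the MHC from HLA-F to TAPBP (position in the order, not distance), for RA astrocytes above and FGF8 astrocytes below. Colours mark the class I presentation genes, other class I and loading genes, class II genes and all others, open symbols are lower bounds and dotted lines 2-fold. PSMB8, TAP1 and PSMB9 lie among class II genes and differ by at most 0.24 between the panels, while TAP2, beside PSMB8, differs by 0.99. The 9 class II genes are all lower in the FGF8 panel.

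Among the factors that control class I promoters, the transactivators NLRC5 and CIITA were higher on both astrocyte arrays, and the NF-Y subunits were within 2-fold by their standard probe sets. NLRC5, the transactivator of class I genes, had signals of 18.7, 116 and 134 on the neuroepithelial, RA and FGF8 arrays. Its lower bounds were 2.15 and 2.36 log2 units, and the FGF8 array was 0.21 above the RA array. CIITA, the class II transactivator, had 21.8, 229.7 and 64.7 by its standard probe set. By that probe set it was 1.83 log2 units higher on the RA array than on the FGF8 array, unlike NLRC5. The 2 other CIITA probe sets did not pass the floor on any array. IRF2, an interferon regulatory factor, had 41.1, 320.1 and 154, and IRF1, an activator induced by interferon, had 56.3, 72.8 and 69.5. The NF-Y subunits NFYA, NFYB and NFYC, which bind the CCAAT box, were within 2-fold by their standard probe sets. Other probe sets reached -2.30 for NFYA, -1.13 for NFYB and -1.78 for NFYC on the RA array. EZH2, a histone methyltransferase known to repress class I genes in some tumours, had 1061, 209 and 711. Of the 20 regulators compared, 5 were higher and 3 lower on the RA array, and 4 higher and 1 lower on the FGF8 array. Over all genes 18.2% were higher and 14.6% lower on the RA array and 12.9% and 10.3% on the FGF8 array, so these counts lay near the background.

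Most interferon receptor and signalling genes were higher on both astrocyte arrays, while no interferon ligand was above the floor on any array. Of 14 receptor and signalling genes 10 were higher and 1 lower on the RA array, and 10 higher and 0 lower on the FGF8 array. The medians were 1.95 and 1.42. Over all genes 18.2% were higher and 14.6% lower on the RA array, and 12.9% and 10.3% on the FGF8 array. IRF9, the DNA-binding subunit of the interferon-activated ISGF3 complex, had 44.1, 741 and 427. IFNAR1, a subunit of the type I interferon receptor, had 76.9, 427 and 458. IFNGR1, a subunit of the interferon gamma receptor, had 724, 604 and 599.7. SOCS1, a feedback inhibitor induced by interferon, had 21.9, 255 and 30.5. Of 9 ligands, interferons with IL6 and TNF, only IL6 passed the floor and only on the RA array, at 34.2.

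Of 25 interferon-stimulated genes, 13 of 18 compared were higher on the RA array and 0 lower. On the FGF8 array 8 of 21 were higher and 1 lower, with medians of 1.64 and 0.49. Beside these counts stand 18.2% of all genes higher and 14.6% lower on the RA array, and 12.9% and 10.3% on the FGF8 array. TRIM22, an antiviral ubiquitin ligase, had 57.9, 1783 and 848. IFIT1, which binds viral RNA, had 112, 705 and 155, log2 differences of 2.65 on the RA array and 0.46 on the FGF8 array. IFIT3, of the same family, had 12.8, 319.9 and 289.6 by its standard probe set, and the astrocyte arrays were 0.14 log2 units apart. Another IFIT3 probe set differed by 1.76 on the RA array and 1.21 on the FGF8 array, 0.55 apart. BST2, or tetherin, which is known to respond to interferon, had 83.1, 91.4 and 10.1. Between the astrocyte arrays 8 of 22 compared were higher on the RA array and 2 lower, beside 9.72% and 7.92% of all genes. The 2 lower were IFI44L, with 0.87, 9.42 and 164, and IFIH1, with 3.40, 21.5 and 70.8. Both were below the floor on the neuroepithelial and RA arrays and so were not among the 18.

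Relatives of the class I heavy chains did not share one direction. Of 11 class I-like genes 7 were at the floor on both the RA and neuroepithelial arrays by their standard probe sets. On the RA array 2 of 4 compared were higher and 0 lower, beside 18.2% and 14.6% of all genes. On the FGF8 array 1 of 3 was higher and 2 lower, beside 12.9% and 10.3%. Other probe sets on the RA array ran from -0.39 to 1.64 log2 units for HFE, 1 of the 7, and reached 1.59 for MR1. MICA, a stress ligand of the receptor NKG2D, had 192, 135 and 22.1. FCGRT, the heavy chain of the neonatal Fc receptor and another partner of B2M, had 34.2, 403 and 69.5. It was thus 3.56 log2 units higher on the RA array and 1.02 on the FGF8 array. The lymphocyte receptors that read class I molecules were below the floor on all arrays apart from KIR2DL4 on the RA array, at 31.9, of 7 genes.

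All other genes were ranked by how closely their centred log2 profile over the 3 arrays matched the mean profile of the 9 genes. The mean profile was -1.74 on the neuroepithelial array, 1.16 on the RA array and 0.58 on the FGF8 array. Among 10303 genes above the floor on all 3 arrays the nearest were ZBED3, PAG1, TNFRSF1A, ZMAT3 and WWTR1. TNFRSF1A, a receptor of tumour necrosis factor, was 2.99 log2 units higher on the RA array and 2.40 on the FGF8 array. The mean profile includes PSMB8, PSMB9 and HLA-F raised to the floor, so the ranking depends on the floor. With 3 arrays many genes have near profiles, and the ranking is a description.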

How the data were processed

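Total RNA of 3 cultures was measured on Affymetrix human arrays. Per the labels' protocols it was extracted with Trizol, cleaned on a Qiagen column and biotin-labelled at a core facility. The deposited values are linear intensities, 1 per probe set. Their mean, leaving out 2% of probe sets at each end, was 150.02 on each array, so each array had been scaled to a common level before it was deposited. The sources used here do not say how probe signals were summarised.

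Intensities were taken to log2 and quantile normalized over all probe sets of the 3 arrays (numpy 2.4.6, pandas 2.3.3). The floor, log2 4.71, was the median over 54613 probe sets that are no controls. Lower values were raised to it. A gene with 1 side at the floor got a lower bound, and a gene with both sides there got no difference. A difference was counted from 2-fold. The calculation was tested on simulated data. A probe set entered if the annotation gave it a single gene symbol, which held for 41091 (1801 had several, 11721 had none). Identifiers of 41043 matched RefSeq (GRCh38.p14), used for names and gene order, and 0 symbols changed. Genes without such a probe set were not analysed here.

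The members, the 25 gene lists and the promoter motifs were chosen with earlier results of these data known. Named genes were all members, up to 3 genes per list with the largest differences and 2 nearest to 0 in each comparison, the 5 nearest profiles, and a few fixed genes (TAPBP, PSMB10, PSMB5, NLRC5, IRF1, CIITA, GFAP, SOX1 and LIN28A among them). PSMB8-AS1 and the microglia markers below the floor were named after their values were seen. As alternatives the intensities were used as deposited, scaled to equal medians or quantile normalized on the linear scale. The floor was also set at the 30th or 70th percentile or left out, other probe sets stood for a gene, and 1.5-fold or 4-fold was the size counted.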

Additional observations from a re-analysis of the deposited data

Results flagged for a closer look

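A TAP2 probe set other than its standard one (34.1, 22.1 and 49.5 on the neuroepithelial, RA and FGF8 arrays) differed from neuroepithelial cells by -0.39 log2 units on the RA array, as a bound, and by 0.54 on the FGF8 array. PROCR, a class I-like receptor, differed by 1.26 on the RA array and by -1.20, as a bound, on the FGF8 array. Both stand here because the astrocyte arrays lay on opposite sides of the neuroepithelial array, and the difference was not tested.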

How the results depend on the processing

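No paired analysis was possible because each group had 1 array and no test was made. Across the alternatives, 141 of the summary values over the genes and probe sets stayed within the limit set for them and 18 moved past it. Leaving out the _x_at and _s_at types, 3 genes (of 4 compared; 18.5% of all) were higher on the RA array, 3 (of 5; 13.4%) on the FGF8 array and 1 (9.68%) on the RA against the FGF8 array, since genes without another probe set dropped out. With no floor, 1 gene and 2 probe sets were lower on the RA than on the neuroepithelial array, beside 4199 of 19775 genes. On the FGF8 array 1 probe set was lower than on the neuroepithelial array. Against the FGF8 array, 1 gene and 2 probe sets were lower on the RA array, beside 3187 of 19775 genes. With the floor at the 30th percentile the counts in that comparison were again 1 and 2, beside 1746 of 16857 genes. Shares over all probe sets were not computed for the alternatives. With the floor at the 70th percentile the median of the genes on the RA array was 2.39. At 4-fold, 5 genes (3.74% of all) and 7 probe sets were higher on the FGF8 array, and 0 genes (2.51%) and 0 probe sets on the RA against the FGF8 array. At 1.5-fold, 4 genes (19.5%) were higher and 1 probe set lower on the RA against the FGF8 array. With array medians set equal 1 probe set was lower there. The median of the class I-like genes on the FGF8 array was -1.20, and turned to 0.28 with the floor at the 30th percentile and to 0.37 with no floor, where more genes entered. The fold bounds of PSMB8 and PSMB9 follow the floor: over the alternatives the RA differences ran from 1.81 to 7.68 and from 2.31 to 7.93 log2 units. The difference between RA and FGF8 astrocytes ran from 1.08 to 1.36 for HLA-B, from 1.29 to 1.43 for HLA-E, from 0.10 to 0.17 for TAP1 and from -0.53 to 0.9999 for B2M, the lowest where its dim probe set stood for the gene. Differences near the floor cannot be resolved on 1 array per group.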
